A study of Mus musculus with 6 samples.

Results

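A set of 9 genes that mark macrophages or encode transcription factors of their lineage was followed in immortalized bone marrow-derived macrophages (iBMDMs) after knockdown of the mitochondrial phosphatase PGAM5. They were taken by their symbols in the GENCODE M21 annotation (GRCm38): Csf1r, Adgre1, Mpeg1, Lyz1, Lyz2, Spi1, Cebpa, Cebpb and Maf. All 9 were among the 54532 genes listed in each library, and 8 of them were tested, since Maf lay under the filter on low values. The series holds 6 RNA-seq libraries, 3 from control cells with a control shRNA (shControl) and 3 from PGAM5 KD cells with an shRNA against Pgam5 (shPGAM5). Both groups come from C57Bl/6 bone marrow macrophages that had been immortalized with retroviruses carrying v-raf and v-myc, and the shRNAs were delivered by lentivirus. Both were treated with LPS at 100 ng/ml for 4 hours, so untreated cells were not compared. Each group carries its own shRNA, so PGAM5 loss and any other difference of the infected lines cannot be told apart, and the labels do not say whether replicates were separate cultures. P-values therefore measure only the spread between these libraries, which may be technical.

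Macrophages descend from myeloid progenitors in which PU.1, the ETS-family factor encoded by Spi1, opens the enhancers of myeloid genes together with the C/EBP factors. C/EBPα, encoded by Cebpa, commits progenitors to the granulocyte and monocyte lineages, and C/EBPβ, encoded by Cebpb, takes part in the response of mature macrophages to LPS. The receptor for CSF1, encoded by Csf1r, carries the survival signal of these cells, Adgre1 encodes the surface antigen F4/80, Mpeg1 encodes the pore-forming protein perforin-2, and Lyz1 and Lyz2 encode lysozyme. MAF is a factor of resident, terminally differentiated macrophages and restrains their self-renewal.

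Expression was deposited as FPKM, fragments scaled to exon length and to the size of the library, which sets genes of different length on a common scale. The depth recovered from these values was between 18163464 and 24388917 fragments. Differences are log2 fold changes of PGAM5 KD against control on the log2(FPKM + 1) scale, from limma fitted across 10540 genes with a mean of at least 1 FPKM, with Benjamini-Hochberg adjustment over all of them. Where FPKM is low, the added 1 makes fold changes look smaller than they are. Pgam5 itself had 14.5 ± 2.27 FPKM in control (SD, n = 3) and 4.87 ± 0.770 FPKM in PGAM5 KD libraries (SD, n = 3). As a check of the labelled cell type, 20 of 32 other macrophage markers reached 1 FPKM in some library, among them Cd68, Cd14, Lgals3, Tyrobp and Cx3cr1. Mertk, C1qc, Timd4 and Ly6c2, markers of efferocytic or resident macrophages and of inflammatory monocytes, were listed at 0 in every library. Of 47 markers of neutrophils, dendritic cells, B cells, T cells, mast cells, erythroid cells and fibroblasts, 25 were listed at 0 in every library and 45 stayed under 1 FPKM. The exceptions were Tcf4, a factor of plasmacytoid dendritic cells, which rose from 2.78 to 3.51 FPKM (adjusted p = 0.0397 from limma), and the T cell kinase gene Lck with 1.84 and 2.40 FPKM, which did not pass; their part in the results was not tested. Summed over a list, the neutrophil markers came to between 0 and 0.232 FPKM in control and between 0.145 and 0.568 FPKM in PGAM5 KD libraries.

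Of the 8 genes tested, 6 had an adjusted p-value under 0.05, where 31.7% of all genes tested did. Adgre1 and Lyz1 rose, and Csf1r, Mpeg1, Lyz2 and Cebpa fell. Spi1 and Cebpb did not pass the test. Over all genes tested, 16.8% passed as higher and 14.9% as lower in PGAM5 KD cells, a split of 1771 to 1575 genes that became 1088 to 2282 after scaling to TPM. The median absolute log2 fold change was 0.39 for the 8 genes and 0.15 for all genes tested. Among genes with a mean of at least 5 FPKM, 2771 of 7092 passed, 6 of them from the set. The genes of the set were chosen with earlier results of these data known, so these shares are no test of the set. With the added threshold of an absolute log2 fold change above 1, which 1.32% of genes passed, Lyz1 was the gene left. The libraries of both groups did not overlap for 6 of the 8 genes and for 47.1% of all genes tested. For each of these 6 genes the exact two-sided permutation test gave p = 0.1, the smallest that 3 libraries against 3 allow. In bulk libraries such as these, fewer cells of a type and less RNA per cell cannot be told apart.

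**Figure D1:**
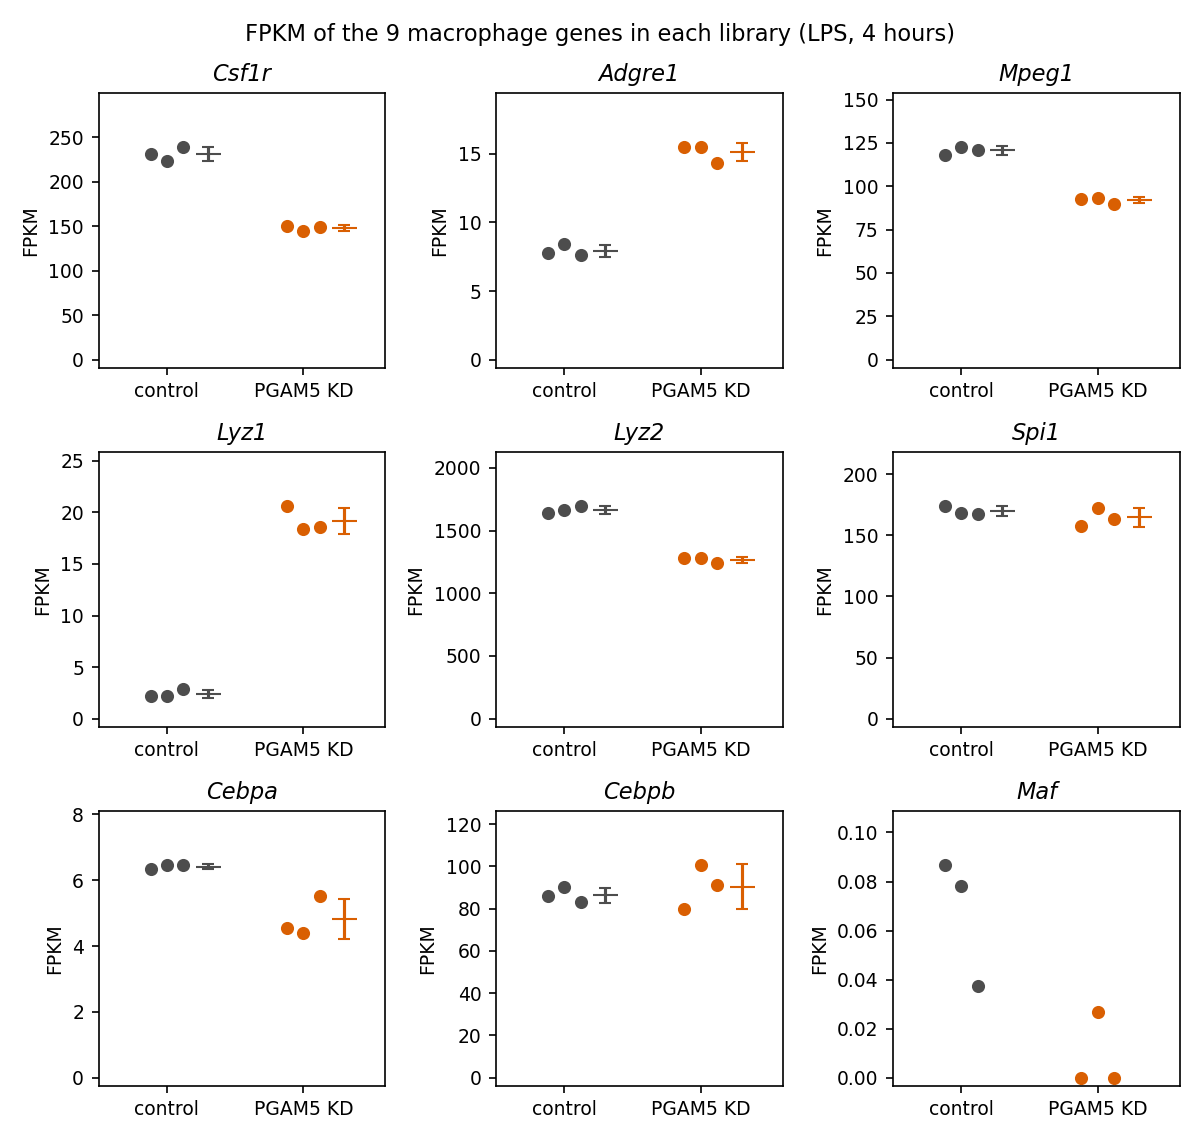
FPKM of each gene in the 3 control (grey) and 3 PGAM5 KD (orange) libraries, 1 point per library, with the mean and SD beside the points except for Maf. All axes include 0 and differ in range; the points of Csf1r, Mpeg1, Lyz2 and Cebpa lie lower and those of Adgre1 and Lyz1 higher in PGAM5 KD cells, while those of Spi1 and Cebpb overlap.

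Csf1r (ENSMUSG00000024621, chromosome 18, 61100598 to 61132149, plus strand) had 231, 223 and 239.5 FPKM in control libraries 1, 2 and 3 and 150.1, 144 and 149 FPKM in PGAM5 KD libraries 1, 2 and 3. Every PGAM5 KD library lay well below every control library, and replicates within a group differed by a few percent. The mean fell by 36.1%, from 231 ± 8.17 to 148 ± 3.14 FPKM (SD, n = 3), on 15125 to 26999 fragments in each library. In limma this was -0.64 ± 0.04 (SE) on the log2 scale (adjusted p = 4.71e-05), a larger size than that of 94.5% of genes tested. It stayed between -0.74 and -0.62 over all 15 alternative settings. The gene shares 873 exon bases with Hmgxb3 on the opposite strand, which had 13.7 FPKM in control and 14.0 FPKM in PGAM5 KD cells.

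Adgre1 (ENSMUSG00000004730, chromosome 17, 57358691 to 57483527, plus strand) moved the other way. It had 7.79, 8.40 and 7.61 FPKM in control and 15.5, 15.5 and 14.4 FPKM in PGAM5 KD libraries. The lowest PGAM5 KD library was above the highest control library, and the ratio of the means, 15.1 ± 0.655 to 7.93 ± 0.416 FPKM (SD, n = 3), was 1.91. In limma this was a rise of 0.85 ± 0.06 (SE) on the log2 scale (adjusted p = 9.68e-05), on 458 to 1134 fragments. Among the alternatives it ranged from 0.83 to 0.92. In both groups every library had less Adgre1 than Csf1r in FPKM.

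Mpeg1 (ENSMUSG00000046805, chromosome 19, 12460779 to 12465283, plus strand) had 118, 123 and 121 FPKM in control and 92.6, 93.5 and 90.1 FPKM in PGAM5 KD libraries. The groups were apart and each was tight, with coefficients of variation of 2.00% and 1.94%. The mean fell by 23.7%, from 121 ± 2.41 to 92.1 ± 1.78 FPKM (SD, n = 3), or -0.39 ± 0.03 (SE) on the log2 scale (limma adjusted p = 0.000216). The range over the alternatives was -0.47 to -0.37.

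The lysozyme genes lie side by side on the minus strand of chromosome 10, Lyz2 (ENSMUSG00000069516) from 117277331 to 117282321 and Lyz1 (ENSMUSG00000069515) from 117287797 to 117292868, with 5475 bases between them and 4 annotated exons each. Lyz2 is the lysozyme gene of macrophages and Lyz1 is best known from Paneth cells of the gut. The first 300 of the 447 coding bases of each, from GENCODE M21, are shown because they set how well short reads can tell the genes apart. The whole coding sequences lie within chr10:117288583-117292838 for Lyz1 and chr10:117278121-117282242 for Lyz2, printed with introns removed, 5′ to 3′ on the minus strand, and capitals mark bases that differ between both genes.
Lyz1: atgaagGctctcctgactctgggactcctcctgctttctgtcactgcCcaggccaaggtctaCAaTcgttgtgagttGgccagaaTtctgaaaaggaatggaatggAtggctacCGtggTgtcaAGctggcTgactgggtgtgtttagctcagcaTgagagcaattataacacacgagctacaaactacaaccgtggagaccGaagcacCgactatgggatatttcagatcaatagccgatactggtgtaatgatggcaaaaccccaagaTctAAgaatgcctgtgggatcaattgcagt
Lyz2: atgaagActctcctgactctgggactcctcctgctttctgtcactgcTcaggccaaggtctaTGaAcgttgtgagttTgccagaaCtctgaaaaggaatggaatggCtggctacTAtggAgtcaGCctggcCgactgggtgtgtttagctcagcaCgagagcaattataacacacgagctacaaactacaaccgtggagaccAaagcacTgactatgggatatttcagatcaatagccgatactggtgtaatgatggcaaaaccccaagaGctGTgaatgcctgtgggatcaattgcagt
Of all 447 bases, 425 (95.1%) are identical, and the 22 substitutions leave a stretch of 118 bases without a difference. Over the whole transcripts, 195 of the 1214 windows of 50 bases in Lyz1 (16.1%) also occur in Lyz2, as do 24 of 1164 windows of 100 bases (2.06%) and 0 of 1114 windows of 150 bases. The read length is not given in the sources used here.

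Lyz2 was the highest of the 9 genes in every library. It had 1638, 1661 and 1698 FPKM in control and 1279, 1278 and 1239 FPKM in PGAM5 KD libraries, and the groups were far apart relative to their spread. The mean fell by 24.0%, from 1666 ± 30.1 to 1265 ± 22.6 FPKM (SD, n = 3), or -0.40 ± 0.03 (SE) on the log2 scale (limma adjusted p = 0.000114). Ranked by mean FPKM among all listed genes, Lyz2 was number 8 in control and number 13 in PGAM5 KD cells. Its log2 fold change ranged from -0.48 to -0.34 over the alternatives.

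Lyz1 had 2.22, 2.20 and 2.88 FPKM in control libraries, from 51, 56 and 71 fragments. In PGAM5 KD libraries it had 20.6, 18.4 and 18.5 FPKM, from 573, 422 and 571 fragments. All PGAM5 KD libraries were several times above all control libraries, and the ratio of the mean FPKM was 7.89. On the log2 scale limma gave 2.56 ± 0.09 (SE, adjusted p = 1.32e-05), and it ranged from 2.51 to 2.97 over the alternatives, the highest being voom on recovered fragments. The coefficient of variation of the control libraries, 15.9%, was close to the 13.0% that counting error alone gives at this number of fragments.

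Since Lyz1 is so low beside its neighbour, its share of the fragments on both genes was taken within each library. It was 0.130%, 0.127% and 0.163% in control libraries (95% Clopper-Pearson intervals 0.0969% to 0.171%, 0.0958% to 0.165% and 0.127% to 0.205%). In PGAM5 KD libraries it was 1.53%, 1.36% and 1.42% (intervals 1.40% to 1.65%, 1.24% to 1.498% and 1.30% to 1.54%). No interval of one group met one of the other, and the intervals cover counting error only (exact two-sided permutation p = 0.1 for the share). In FPKM, the rise of Lyz1 by 16.8 came to 4.19% of the size of the fall of Lyz2, so that both genes together went from 1668 to 1285 FPKM. How the authors' counting treated fragments that match both genes is not given in the sources used here, and a changed split of such fragments was not tested. The nearest tested protein-coding genes on either side, Yeats4 at 52824 bases and Cpsf6 at 51805 bases, had log2 fold changes of 0.05 (adjusted p = 0.342 from limma) and 0.01 (adjusted p = 0.838 from limma).

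The 200 bases from 250 to 51 bases before the RefSeq start of each lysozyme gene (GRCm38.p6) are shown because these neighbouring copies moved in opposite directions. They cover chr10:117292919-117293118 for Lyz1 and chr10:117282323-117282522 for Lyz2, 5′ to 3′ on the minus strand, with differing or unpaired bases in capitals.
Lyz1: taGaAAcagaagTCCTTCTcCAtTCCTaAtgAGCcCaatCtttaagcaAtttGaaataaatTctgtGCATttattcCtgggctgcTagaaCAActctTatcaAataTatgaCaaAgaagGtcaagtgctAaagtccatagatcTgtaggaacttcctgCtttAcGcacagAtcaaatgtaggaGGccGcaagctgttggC
Lyz2: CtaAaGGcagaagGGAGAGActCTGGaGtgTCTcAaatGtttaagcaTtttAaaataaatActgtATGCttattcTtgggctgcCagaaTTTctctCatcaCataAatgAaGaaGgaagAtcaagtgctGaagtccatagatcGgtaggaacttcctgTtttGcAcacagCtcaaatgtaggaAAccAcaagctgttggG
Of 202 aligned positions, 150 (74.3%) are identical. The ETS core AGGAA, read on both strands, occurs 4 times in each window, and 52.7% of 32851 windows of this length hold it. The C/EBP letters TTNCNNAA, also read on both strands, have 1 match in Lyz1, which overlaps no AGGAA match, and none in Lyz2, and 32.3% of windows hold a match. A match is a description of letters only.

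**Figure D2:**
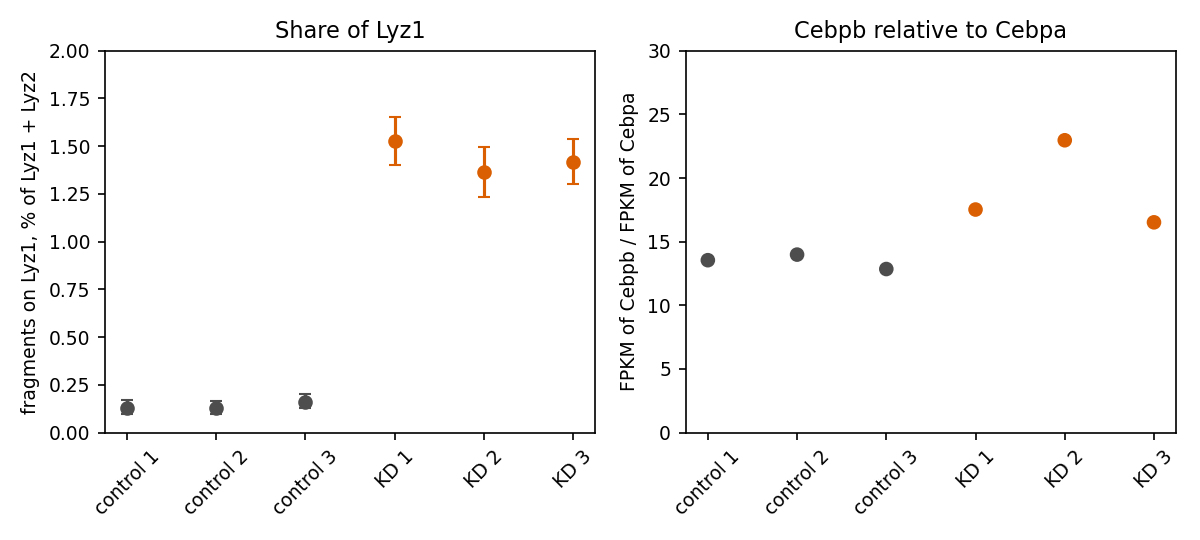
Left, the percent of the fragments on Lyz1 and Lyz2 that were on Lyz1 in each library, with 95% Clopper-Pearson intervals. Right, the FPKM of Cebpb divided by that of Cebpa in each library. On the left control libraries (grey) lie at or under 0.163% and PGAM5 KD libraries (orange) at or above 1.36%, and on the right control libraries lie at or under 14.0 and PGAM5 KD libraries at or above 16.5.

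Spi1 (ENSMUSG00000002111, chromosome 2, 91082390 to 91115756, plus strand), the gene of PU.1, had 174, 168 and 167 FPKM in control and 158, 173 and 163 FPKM in PGAM5 KD libraries. PGAM5 KD libraries 1 and 3 were below all control libraries and PGAM5 KD library 2 fell among them. The means were 169.8 ± 3.84 and 165 ± 7.47 FPKM (SD, n = 3), and the log2 fold change of -0.05 (standard error 0.04, 95% interval -0.14 to 0.05) did not pass (limma adjusted p = 0.431, exact permutation p = 0.4). Scaling to TPM took it to -0.12 with an adjusted p of 0.0403 from limma, where the range over the alternatives was 0.0403 to 1.

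Cebpa (ENSMUSG00000034957, chromosome 7, 35119293 to 35121928, plus strand) had 6.33, 6.45 and 6.47 FPKM in control and 4.54, 4.39 and 5.51 FPKM in PGAM5 KD libraries. All PGAM5 KD libraries were lower, but library 3 lay near the control values. The mean fell by 25.02%, from 6.42 ± 0.0769 to 4.81 ± 0.607 FPKM (SD, n = 3), or -0.36 ± 0.08 (SE) on the log2 scale (limma adjusted p = 0.0167). With 210 to 354 fragments per library, counting error alone gives a coefficient of variation of 5.54% in control and 6.02% in PGAM5 KD libraries, against 1.20% and 12.6% observed. The call was lost without control replicate 2 (adjusted p = 0.0505 from limma), without control replicate 3 (0.0526) and without PGAM5 KD replicate 2 (0.0516), while the log2 fold change stayed between -0.44 and -0.30 over the fits that left out a library. Its antisense gene Gm45091, which shares 51 exon bases, had at most 4 fragments in a library.

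Cebpb (ENSMUSG00000056501, chromosome 2, 167688915 to 167690418, plus strand), a gene with 1 exon, had 85.7, 90.2 and 83.2 FPKM in control and 79.6, 100.7 and 91.0 FPKM in PGAM5 KD libraries. The PGAM5 KD libraries held both the lowest and the highest value of the 6. The means were 86.4 ± 3.55 and 90.4 ± 10.6 FPKM (SD, n = 3), and the log2 fold change of 0.06 (standard error 0.08, 95% interval -0.13 to 0.25) did not pass the test (adjusted p = 0.614 from limma, exact permutation p = 0.6). Without PGAM5 KD replicate 2 it was -0.02, and scaled to TPM also -0.02. Cebpb shares 312 exon bases with Tmem189 on the opposite strand, which had 17.8 FPKM in control and 18.4 FPKM in PGAM5 KD cells.

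The balance of both C/EBP genes within a library does not depend on any scaling between libraries. Cebpb was 13.5, 14.0 and 12.9 times as high as Cebpa in control and 17.5, 23.0 and 16.5 times as high in PGAM5 KD libraries, so that the groups did not overlap. The log2 ratio of Cebpa to Cebpb was -3.75 ± 0.06 in control and -4.23 ± 0.25 in PGAM5 KD cells (SD, n = 3), a difference of -0.48 (exact two-sided permutation p = 0.1). With any single library left out, it lay between -0.58 and -0.34.

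Maf (ENSMUSG00000055435, chromosome 8, 115682942 to 115707794, minus strand) was at the limit of detection. It had 13, 13 and 6 fragments in control and 0, 4 and 0 fragments in PGAM5 KD libraries, which is at most 0.0868 FPKM. In the PGAM5 KD libraries without a fragment, a count of 0 allows up to 3 fragments, or 0.0166 FPKM in library 1 and 0.0149 FPKM in library 3. The control libraries were all above the PGAM5 KD libraries, but with 32 fragments in all control and 4 in all PGAM5 KD libraries the gene was not tested.

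**Figure D3:**
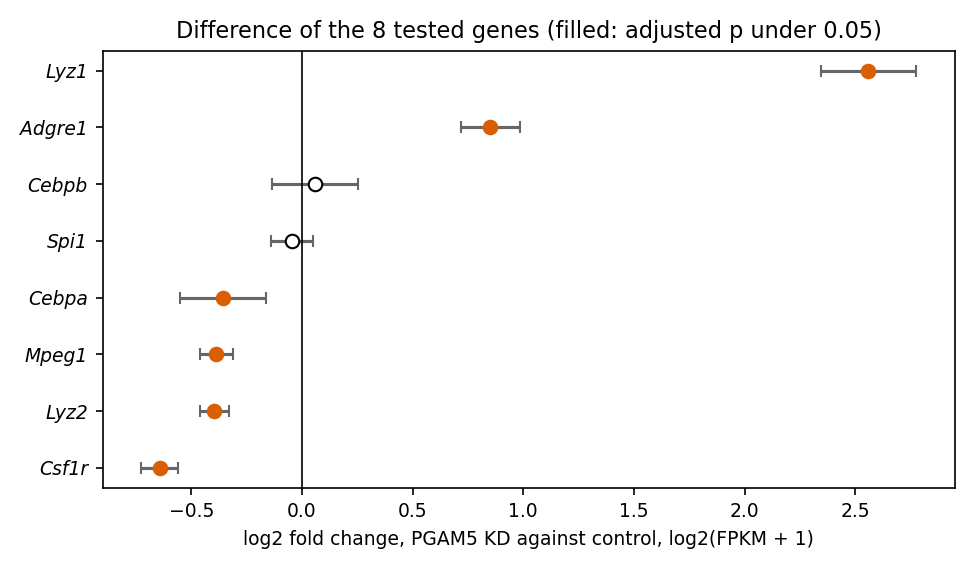
Log2 fold change of the 8 tested genes, PGAM5 KD against control, with 95% intervals from limma. Filled points have an adjusted p-value under 0.05; Lyz1 stands at 2.56 and Adgre1 at 0.85, the fallen genes lie between -0.64 and -0.36, and the intervals of Spi1 and Cebpb include 0.

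Ordered by FPKM in control cells, the genes ran Lyz2, Csf1r, Spi1, Mpeg1, Cebpb, Adgre1, Cebpa, Lyz1 and Maf, and no neighbours in this order had overlapping libraries. In PGAM5 KD cells the order was Lyz2, Spi1, Csf1r, Mpeg1, Cebpb, Lyz1, Adgre1, Cebpa and Maf, where the libraries of Mpeg1 and Cebpb overlapped and all other neighbours were apart. Csf1r thus went from above Spi1 to below it, and Lyz1 from below Cebpa to above Adgre1. Among all listed genes, Lyz1 went from rank 8878 to 2955, Adgre1 from 5625 to 3639, Csf1r from 187 to 328 and Mpeg1 from 387 to 578 by mean FPKM. Spi1 went from rank 257 to 287, and Cebpb had rank 587 in both groups.

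Genes of like pattern were sought for the 3 genes with the largest absolute log2 fold change, as the smallest root mean square difference of log2(FPKM + 1), set to its control mean, over the 6 libraries and 9330 protein-coding genes. For Lyz1 these were the cytokine gene Il6 (difference 0.21, log2 fold change 2.52) and Ifi202b (difference 0.24, log2 fold change 2.75), of which Il6 passed the filter only through its level in PGAM5 KD cells. For Adgre1 they were Rnase4 (0.05, log2 fold change 0.89) and Igf2bp2 (0.05, log2 fold change 0.80), and Rnase4 likewise was under 1 FPKM in control. For Csf1r the closest was Sqstm1, which encodes an autophagy receptor (0.03, log2 fold change -0.65).

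The families of the 9 genes were then examined. Of 24 relatives, 7 were tested, 2 rose, 2 fell and 3 did not pass, with a median log2 fold change of -0.07 against 0.01 for all genes tested. Cebpd, which encodes the LPS-inducible C/EBPδ, rose from 22.2 ± 1.01 to 37.96 ± 1.43 FPKM (SD, n = 3), or 0.75 on the log2 scale (limma adjusted p = 8.84e-05). Cebpe, which encodes the C/EBP factor of late granulocyte maturation, rose from 0.532 ± 0.127 to 2.02 ± 0.107 FPKM (log2 fold change 0.98, adjusted p = 0.00114 from limma) and passed the filter only through PGAM5 KD cells. It was larger on other scales, with log2 fold changes of 1.76 with a pseudocount of 0.1 and 1.90 with voom on recovered fragments. Ddit3, which encodes the stress-induced C/EBP homologue CHOP, fell from 5.41 ± 0.849 to 2.73 ± 0.136 FPKM (log2 fold change -0.77, adjusted p = 0.00220 from limma); 2 annotated genes carry this symbol and the longer was used. Cebpg had 6.12 ± 0.435 and 5.80 ± 0.400 FPKM and did not pass (adjusted p = 0.516 from limma). The C/EBP genes therefore held 2 that rose, 2 that fell and 2 that did not pass. Among the small Maf genes, whose products pair with other bZIP factors, Mafg fell from 28.4 ± 0.499 to 22.2 ± 1.21 FPKM (log2 fold change -0.34, adjusted p = 0.00228 from limma), while Maff (log2 fold change -0.01) and Mafk (-0.08) did not pass. Of 17 relatives under the filter, most had under 0.1 FPKM on average in both groups, and the filter also left out Adgre5 and Pdgfrb, which had fragments in every library. Among the 17 were the PU.1 relatives Spib and Spic, the adhesion receptors Adgre4 and Adgre5, the perforin gene Prf1, the receptor genes Kit, Flt3, Pdgfra and Pdgfrb and the lysozyme-like genes Lyzl1, Lyzl4, Lyzl6 and Spaca3.

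Other transcription factors of the myeloid lineage moved in both directions. Of 27, 20 were tested, 6 rose, 4 fell and 10 did not pass, and the median log2 fold change was 0.06. Id1, whose product blocks the DNA binding of bHLH factors, rose from 8.21 ± 1.03 to 30.9 ± 1.67 FPKM (SD, n = 3), or 1.80 on the log2 scale (limma adjusted p = 2.54e-05). Irf8, a factor of monocytes and dendritic cells that partners PU.1, rose from 4.82 ± 0.468 to 8.33 ± 0.435 FPKM (log2 fold change 0.68, adjusted p = 0.000883 from limma). Klf2 (0.75), Id2 (0.48) and Mef2c (0.39) rose as well. Bhlhe41 fell from 5.91 ± 0.206 to 2.98 ± 0.350 FPKM (log2 fold change -0.80), and Zeb2, a repressor needed for macrophage identity, from 17.2 ± 0.190 to 12.2 ± 0.280 FPKM (log2 fold change -0.46). Elf4 (-0.36) and Etv6 (-0.25) also fell, but the call of Etv6 was lost without control replicate 2, control replicate 3, PGAM5 KD replicate 2 or PGAM5 KD replicate 3, with adjusted p-values from limma up to 0.0653.

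Among the remaining macrophage markers there were 5 that rose, 5 that fell and 9 that did not pass of 19 tested, and the median log2 fold change was -0.003. The Fc receptor gene Fcgr1 rose from 4.34 ± 0.843 to 14.1 ± 1.49 FPKM (SD, n = 3, log2 fold change 1.51). Siglec1 (1.46, or 2.28 with voom on recovered fragments), which passed the filter only through PGAM5 KD cells, the scavenger receptor gene Msr1 (1.04), the integrin gene Itgam (0.68) and the LPS co-receptor gene Cd14 (0.56) rose as well. Sirpa, which encodes the receptor for CD47, fell from 66.2 ± 1.79 to 49.4 ± 0.754 FPKM (log2 fold change -0.41). Clec12a (-0.24), Cd68 (-0.20), Laptm5 (-0.16) and Ctss (-0.13) fell less. Cd68 kept its call with any library left out (adjusted p up to 0.0074 from limma). The calls of Clec12a, Laptm5 and Ctss were lost without certain libraries. For Clec12a and Ctss these were control replicates 2 and 3 and PGAM5 KD replicates 1 and 2, with adjusted p-values of up to 0.0821 and 0.0904 from limma, and for Laptm5 control and PGAM5 KD replicates 2 and 3, with up to 0.0718.

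Of 22 genes of the CSF1 receptor pathway, 20 were tested, 6 rose, 4 fell and 10 did not pass, with a median log2 fold change of -0.03. The ligand gene Csf1, named after its values were seen, had 1.06 ± 0.378 and 1.04 ± 0.522 FPKM in control and PGAM5 KD cells (SD, n = 3) and Il34, the other ligand gene, was under the filter. Src-family kinase genes moved in opposite directions, with Fyn (log2 fold change 0.49) and Lyn (0.23) higher and Fgr (-0.54) lower. The adaptor gene Dok2 (0.42) and the phosphatase gene Ptpn6 (0.23) rose, while the ubiquitin ligase gene Cbl (-0.36) and Dok1 (-0.31) fell, the last with adjusted p-values of up to 0.0611 from limma without control replicate 1 or 2. Pik3r1, the regulatory subunit gene of PI3 kinase, fell by 0.33 on the log2 scale.

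**Figure D4:**
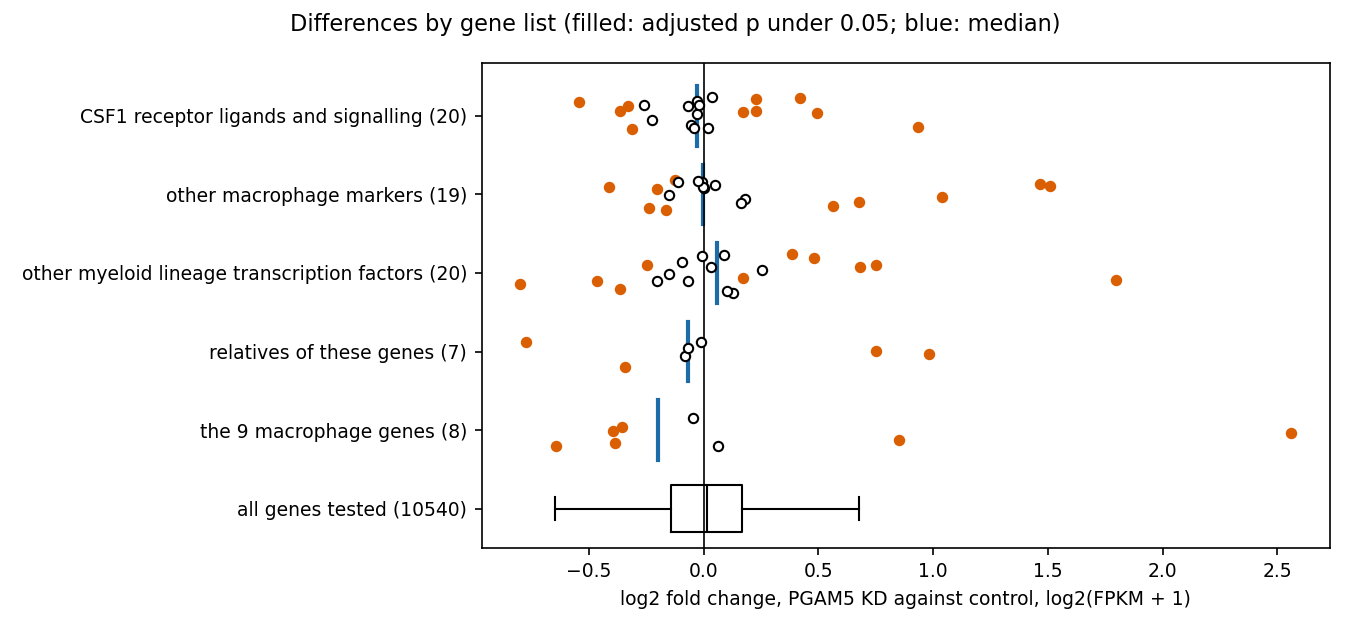
Log2 fold changes of the tested genes of each list, 1 point per gene, filled where the adjusted p-value was under 0.05, with the list's median in blue. The box of all 10540 genes tested shows the quartiles and median, with whiskers over the central 95% of genes; each list has filled points on both sides of 0, and medians lie between -0.20 and 0.06.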

How the data were processed

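RNA-seq was made from 6 iBMDM samples, 3 control and 3 PGAM5 KD, as the labels group them. The authors deposited FPKM values per gene, 1 table per library. The submitters' processing notes name HISAT2 2.0.5, featureCounts 1.5.0-p3 and mm10, without their order; strandedness and read length are not given in the sources used here. FPKM times GENCODE M21 exon length gave whole fragments (within 0.01) for 96.8% to 97.1% of values under 1000 fragments, and from them the depth. The values were analysed as log2(FPKM + 1) for the 10540 genes with a mean of at least 1 FPKM in limma 3.58.1 (R 4.3.3) (trend over mean expression; p-values adjusted by Benjamini-Hochberg, threshold 0.05). Single ratios were compared by exact two-sided permutation. On simulated data, 191 of 200 genes changed 2.5-fold were recovered, with 8 false among 199 calls. The changes were added on the log2(FPKM + 1) scale with normal noise to 200 of 10540 genes. Recovery of smaller changes, or with more genes changed, was not tested. The 9 genes and the lists were chosen with earlier results of these data known. Named from each list were at most 5 called genes per direction with the largest absolute log2 fold change, and family relatives; some items that this rule names are not reported here. Alternatives were a pseudocount of 0.1, other filters, quantile normalization, TPM, median centring, no trend, voom on recovered fragments, a replicate block and leaving out each library.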

Additional observations from a re-analysis of the deposited data

How the results depend on the processing

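Of the 9 genes, Csf1r, Adgre1, Lyz1, Lyz2 and Mpeg1 kept their direction and their call under all 15 alternatives. Scaling to TPM, which divides each library by its summed FPKM, took Spi1 to -0.124 on the log2 scale, past the threshold. It also turned Cebpb to -0.018. The summed FPKM was 304393 to 304889 in control and 317936 to 324298 in PGAM5 KD libraries. Why these sums differ was not tested. Leaving out each library in turn gave -0.44 to -0.30 for Cebpa, whose call was lost in 3 of these fits, and -0.020 to 0.148 for Cebpb, which turned negative without PGAM5 KD replicate 2. It left 5 to 6 of the 9 genes called and 2340 to 2858 calls over all genes. At a mean of at least 5 FPKM, 2 rather than 4 relatives were called, since fewer genes were tested. Samples of equal replicate number showed no shared deviation (r = -0.020, 0.016 and -0.052 across genes, which are not independent). Unequal numbers gave r from -0.063 to 0.081, and 3 libraries per group are too few to exclude pairing. A replicate block gave 2652 calls over all genes and still called 6 of the 9 genes. Etv6, Clec12a and Laptm5 lost their call under the block. In the 2 PGAM5 KD libraries where Maf had no fragment, a count of 0 allows up to 3 at this depth.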
